A study of Mus musculus with 7 samples.

Results

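The control transcriptome of bone-marrow-derived macrophages (BMDMs) was described from the 3 libraries, of 7 in the series, that had received neither LPS nor Shisa3. These were the library at 0 h of an LPS time course and the AAV-GFP replicates 1 and 2 of a transduction experiment. All 3 came from bone marrow cells of wild-type C57BL/6 mice, cultured with M-CSF at 20 ng per mL. The BMDMs at 0 h were left without treatment, and the AAV-GFP transduced BMDMs had been exposed for 48 h to an adeno-associated virus that carries GFP under the CAG promoter, a promoter active in most cell types. The other 4 libraries served as references: BMDMs given LPS (100 ng per mL) during 2 h or 4 h, with 1 library each and in the table of the 0 h library, and AAV-Shisa3 transduced BMDMs, which overexpress Shisa3, with 2 libraries in the table of the AAV-GFP samples. The question was which protein-coding genes were most abundant in each control state, and how the macrophage identity and the inflammatory tone of the states compared.

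BMDMs are grown from bone marrow progenitors with M-CSF, the ligand of the receptor Csf1r, and are a standard model of a resting macrophage. Resting macrophages carry large amounts of lysozyme, cathepsins and ferritin, which serve digestion in the phagosome and the storage of iron. Signals from Toll-like receptors or interferon add cytokines, chemokines and antiviral genes to this base through the transcription factors NF-κB, AP-1 and IRF.

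The tables had different units, so levels were compared as ranks within a table. The 0 h values were read counts divided by 1 factor for the library. They were divided by the merged exon length of each gene to bring them to a level per length. The AAV-GFP values were normalised transcript levels (TPM), which are already per length. Of 22021 protein-coding symbols in the LPS table, 21105 (95.8%) were found in the AAV table, and 10793 genes with a mean level of at least 1 TPM or its equivalent over both states were ranked. A percentile of 100 is the most abundant of these genes. A gene is described here as ranked apart where both AAV-GFP samples lay at least 20 percentile points on the same side of the 0 h library. By this rule 1336 genes (12.4%) were apart and higher in AAV-GFP and 1274 (11.8%) apart and higher at 0 h, and these shares are the background for the counts below. Without the filter on low levels the shares were 4.20% and 3.98% of 20925 genes. With 1 library at 0 h there was no test, and no p-value is given. The transduction, the experiment and the processing of the table all differed between the states, the time in culture may have differed too, and these cannot be told apart. The labels do not say whether the AAV-GFP samples came from separate cultures, so the spread between them may be technical.

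The 0 h library held 15588502 reads, with 13498 protein-coding genes at 1 read or more. The references at 2 h and 4 h held 7263258 and 32659392 reads. The depth of the AAV samples is unknown. Their values summed to between 999778 and 999818 over 55352 genes. Counting error at 0 h was small for abundant genes and wide for rare ones. For some rare genes it is given below as the percentile range that the exact 95% Poisson interval of the reads allows, which covers counting error only.

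The identity of both states was that of a macrophage. Lyz2, the lysozyme of myeloid cells, ranked 1 at 0 h with 376966 reads and ranked 2 in AAV-GFP with 28488.8 and 26377.7 TPM. Csf1r, the M-CSF receptor, ranked 24 at 0 h (72358 reads) and 92 and 74 in the AAV-GFP samples (1499.3 and 1623.66 TPM). Adgre1, which encodes the surface antigen F4/80, ranked 42 at 0 h (26831 reads) and 30 and 27 in AAV-GFP (2829.51 and 2920.21 TPM). Spi1, the transcription factor PU.1 that specifies myeloid cells, stood at percentile 96.3 at 0 h and at 98.7 and 98.6 in AAV-GFP. All 3 lay above percentile 96 in every control library.

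Of the 10 macrophage markers, 9 could be joined and all 9 were ranked. The exception was Itgam, whose symbol was not matched between the tables. The median difference of the 9, AAV-GFP minus 0 h, was -0.38 percentile points, against -0.23 over all ranked genes. The median percentile of the 9 at 0 h was 98.3, so many could not rise by 20 points. Cd68 lay at percentile 99.7 at 0 h and at 99.0 and 98.8 in AAV-GFP, Cd14 at 98.3 against 98.0 and 97.9, and the high-affinity Fc receptor Fcgr1 at 94.0 against 98.7 and 98.6. Mertk, a receptor for the uptake of apoptotic cells, was the only marker ranked apart. It had 2246 reads and percentile 89.1 at 0 h, and 18.82 and 19.96 TPM and percentiles 54.5 and 54.9 in AAV-GFP.

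Most defining markers of other blood cell types were at or near 0 in both states, whereas several neutrophil genes were not. None of the 5 NK cell markers and none of the 5 mast cell and basophil markers reached the filter, and the summed level of the NK list was 2 reads at 0 h and 0.03 TPM in each AAV-GFP sample. The T cell receptor genes Cd3e, Cd3d and Cd3g had 0 reads at 0 h, which allows up to 3 reads each, and stood at 0 in both AAV-GFP replicates. The summed T cell list of 200 reads at 0 h came almost wholly from Cd4, with 197 reads and 5.76 and 7.13 TPM (percentiles 30.1, 29.5 and 32.4). The B cell marker Cd79a had 1 read at 0 h and 0.12 and 0.13 TPM, while Cd79b had 109 reads and 13.47 and 11.43 TPM (percentiles 41.1, 46.6 and 41.8). The dendritic cell marker Flt3 had 17 reads at 0 h and 0.21 and 0.12 TPM. Of 11 neutrophil genes 10 were ranked, 6 of them (60%) apart and higher at 0 h, where 11.8% of all ranked genes were. Of the 10, 2 were below 1 TPM in AAV-GFP and passed the filter through 0 h alone, and 1 of these was apart. With no filter 2 of 11 were apart and the median difference was -13.6 points. Their summed level was 10748 reads at 0 h and 607 and 579 TPM in AAV-GFP. Mmp8, a collagenase of neutrophil granules, had 3347 reads at 0 h (percentile 96.5) and 14.08 and 13.96 TPM (percentiles 47.8 and 46.3). Ltf, which encodes lactoferrin, lay at percentile 87.5 at 0 h and at 53.1 and 53.4 in AAV-GFP. The calprotectin subunit S100a9 was above percentile 95 in all 3 libraries, at 99.2 against 96.0 and 95.6. Ly6g, the antigen that defines mouse neutrophils, had 4 reads at 0 h and 0.11 TPM in each AAV-GFP sample. With 0 h values not divided by gene length, only 2 of 9 neutrophil genes were apart and their median difference was -1.7 points in place of -26.7. In bulk libraries fewer cells of a type and less RNA per cell cannot be told apart, and the part of these cells in the results below was not tested.

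**Figure D1:**
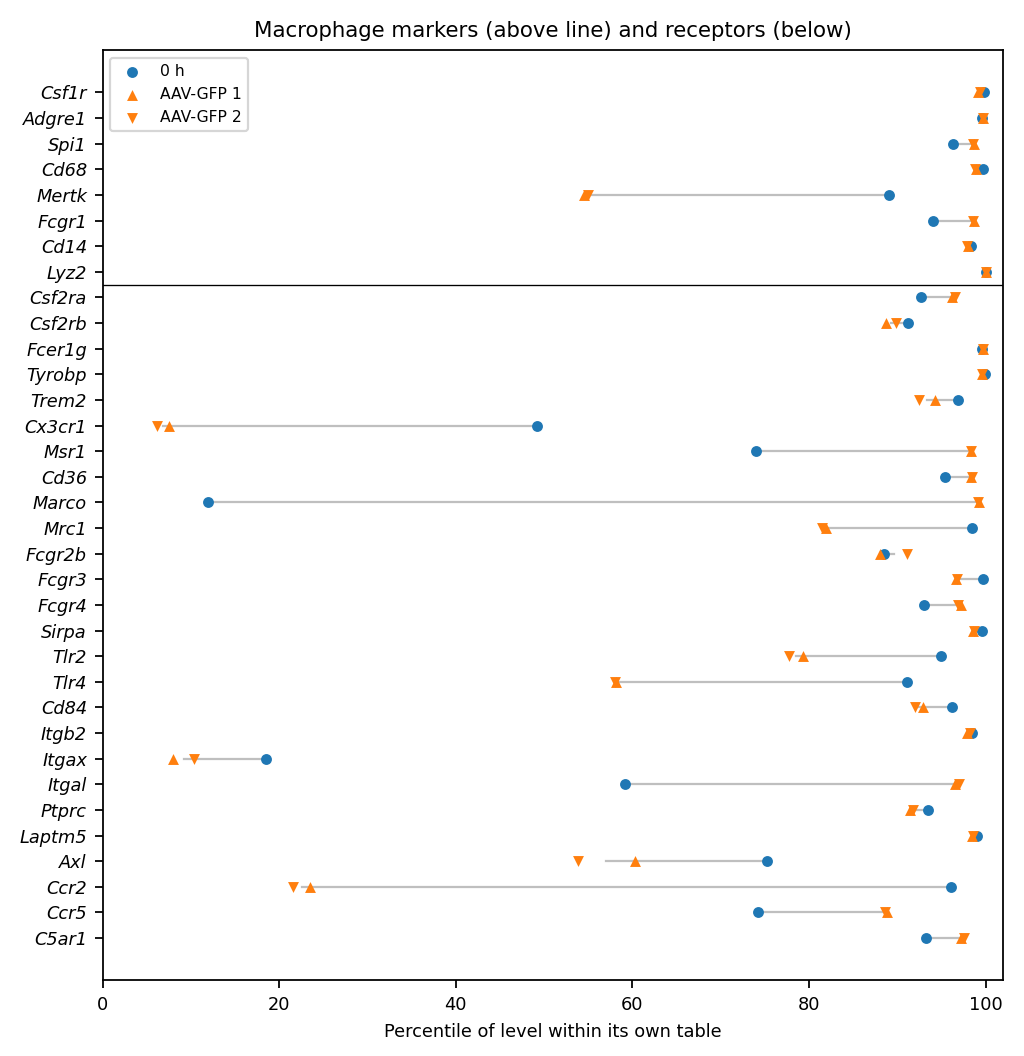
Percentile of the macrophage markers (above the line) and the macrophage receptors and adaptors (below) reported, within its own table, with 0 h as a circle and the AAV-GFP samples as triangles. Most points lie beyond percentile 90 in all 3 libraries, and Marco, Msr1 and Itgal lie to the right, and Ccr2, Cx3cr1, Tlr4 and Mertk to the left, in AAV-GFP.

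Of 26 ranked macrophage receptors and adaptors, 3 (11.5%) were apart and higher in AAV-GFP and 3 (11.5%) apart and higher at 0 h. These shares are near those of all ranked genes, 12.4% and 11.8%. The signalling adaptors Tyrobp and Fcer1g ranked among the 50 most abundant genes of every control library, with 13590 and 6673 reads at 0 h. Marco, a scavenger receptor for bacteria, had 32 reads at 0 h (percentile 11.9, range 7.9 to 16.1) and 1588.75 and 1463.29 TPM in AAV-GFP (percentile 99.2 in both). Msr1, the class A scavenger receptor, went from percentile 74.0 to 98.4 in both samples, and Itgal, the integrin chain of LFA-1, from 59.2 to 96.5 and 97.0. Msr1 was within 20 points when 0 h values were not divided by length, or were divided by the longest or the principal transcript. In the other direction Ccr2, the receptor that brings monocytes into tissue, had 8529 reads at 0 h (percentile 96.1) and 3.9 and 3.64 TPM (percentiles 23.5 and 21.6). Cx3cr1, the fractalkine receptor, lay at percentile 49.1 at 0 h and at 7.5 and 6.1 in AAV-GFP. Cx3cr1 was below 1 TPM in AAV-GFP and passed the filter through 0 h alone. With no filter 1 of the 26 was apart and higher in AAV-GFP and 2 at 0 h. Tlr4, the receptor through which LPS signals, lay at 91.1 against 58.2 and 58.0. Within the LPS table Ccr2 stood at percentile 64.6 at 2 h and 71.3 at 4 h.

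Of the 20 most abundant protein-coding genes of each state, 13 were the same: Lyz2, the ferritin chains Ftl1 and Fth1, the saposin precursor Psap, the cathepsins Ctsd and Ctsb, Apoe, Actb, Tmsb4x, B2m, Eef1a1, Rplp1 and the mitochondrial gene mt-Co1. The top 20 took 24.4% of the summed level per length at 0 h and 20.5% and 20.6% of the TPM in AAV-GFP. The order within this group differed. Fth1 led in both AAV-GFP samples, with 37488.6 and 37518.8 TPM, and ranked 17 at 0 h with 64978 reads. That 0 h rank rests on a merged exon length of 3469 bases, where the principal transcript has 929. Across genes, the ratio of merged to principal length had a Spearman correlation of 0.353 with the percentile difference, AAV-GFP minus 0 h (10793 genes). Ftl1 ranked 2 at 0 h and 4 in both AAV-GFP samples. Psap ranked 3 at 0 h and 15 in both AAV-GFP samples. The 0 h list also held the cathepsin Ctss, the galectin Lgals3, Tyrobp, the lysosomal glycoprotein Gpnmb, S100a4, the complement chain C1qb and Itm2b. The AAV-GFP list held instead Saa3, mt-Atp8, the glycolytic enzyme Gapdh, the actin-binding protein Pfn1, the chaperone Hspa8, the antiviral protein Ifitm3 and Actg1. Of those 7, Hspa8 (30981 reads), Actg1 (15196 reads), Ifitm3 (3335 reads) and Pfn1 (6940 reads) were also above percentile 98 at 0 h, whereas Saa3, Gapdh and mt-Atp8 were not.

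Gapdh and mt-Atp8 are given with a limit. Gapdh had 831 reads at 0 h, percentile 70.1, against 5297.47 and 4962.62 TPM, and was within 20 points when the principal transcript gave the length. mt-Atp8 had 26 reads at 0 h (percentile 56.7, range 43.6 to 68.2) against 5639.88 and 4907.27 TPM, and 21.1% of its exon sequence overlaps another gene, so the counting of shared reads could split them. Some other glycolytic enzymes lay closer together: Pkm at percentile 99.1 at 0 h and 99.8 in both AAV-GFP samples, Aldoa at 99.3 and 99.6, and Ldha at 95.4 against 98.9 and 99.0. Not all did, since the largest difference on the glycolytic list was 43.1 points, against 29.8 for Gapdh. Of 19 glycolytic genes 6 were apart and higher in AAV-GFP and 0 at 0 h, among them the glucose transporter Slc2a1, which went from percentile 40.0 to 78.0 and 81.0, and the lactate exporter Slc16a3, from 52.0 to 93.2 and 93.8.

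Few cytoskeletal and lysosomal genes were apart. Of 28 cytoskeletal genes 0 were apart in either direction. Of 49 lysosomal genes 4 were apart and higher in AAV-GFP and 2 at 0 h. The cathepsin Ctsl ranked 156 at 0 h and 21 and 23 in AAV-GFP, and Ctsz ranked 40 at 0 h and 25 in both samples. The complement chains C1qa, C1qb and C1qc stood between percentile 99.4 and 99.8 at 0 h and between 98.2 and 99.8 in AAV-GFP. Of the nuclear genes of the respiratory chain, 2 of 30 were apart, both higher in AAV-GFP, and 10 of 30 when 0 h values were not divided by length. Of the 13 mitochondrially encoded genes 4 (30.8%) were apart and higher in AAV-GFP, namely mt-Nd3, mt-Nd4l, mt-Atp6 and mt-Atp8, each with 1 to 85 reads at 0 h. Among the 13, 1 was below 1 at 0 h and passed the filter through AAV-GFP alone. With no division by length 9 of the 13 were apart.

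Over all ranked genes the Spearman correlation of the 0 h levels with the mean of the AAV-GFP samples was 0.740, across genes that are not independent replicates. It was 0.994 between the AAV-GFP samples, 0.844 between 0 h and 2 h of LPS, and 0.800 between 0 h and 4 h. The 0 h library was thus nearer in rank to LPS-stimulated BMDMs of its own table than to the AAV-GFP control of the other. The 100 most abundant genes of each state shared 57 (38 when 0 h values were not divided by length), and those of the AAV-GFP samples shared 96. The difference between 0 h and a single AAV-GFP sample was 20 points or more for 2862 and 2839 genes, and between the AAV-GFP samples for 9 genes. The standard deviation of the difference was 3.26 points between the AAV-GFP samples and 20.8 and 20.9 points between 0 h and each of them.

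**Figure D2:**
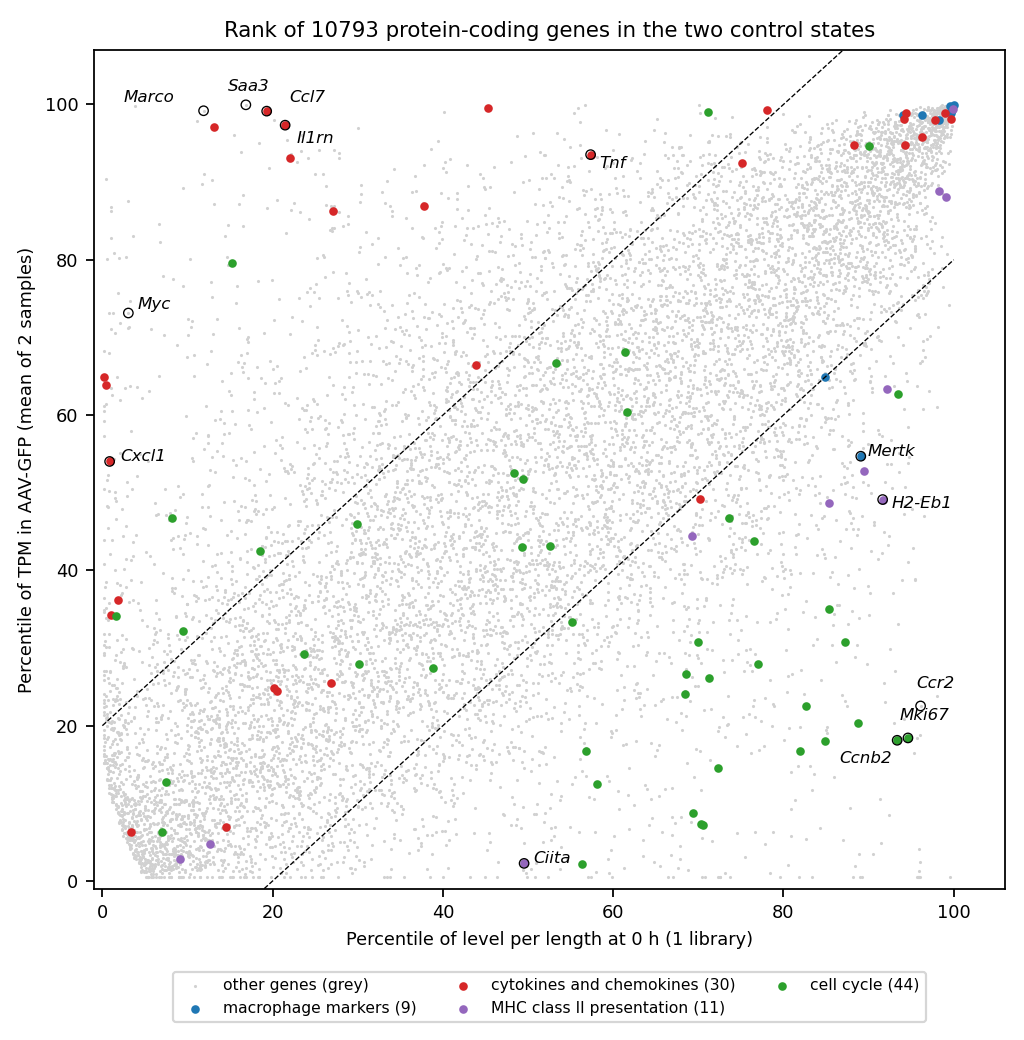
Percentile of 10793 protein-coding genes at 0 h (x axis, level per length, 1 library) and in AAV-GFP (y axis, TPM, mean of 2 samples), with 4 gene lists in colour and dashed lines 20 points from equality. Most macrophage markers lie in the top right corner, with Mertk below it, many cytokines lie in the upper left, and many cell cycle genes and some MHC class II genes lie to the lower right of the dashed lines.

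A part of the same genes also ranked apart between libraries that the rule did not use. Between AAV-Shisa3 and 4 h of LPS, 1023 genes (9.48%) were apart and higher in both AAV-Shisa3 samples and 1028 (9.52%) apart and lower. Of the 1336 genes higher in AAV-GFP, 608 (45.5%) were also higher in AAV-Shisa3 than at 4 h, and 39 were lower. Of the 1274 genes higher at 0 h, 500 (39.2%) were also lower in AAV-Shisa3 than at 4 h, and 14 were higher. Between AAV-Shisa3 and 2 h of LPS, 1054 genes (9.77%) were apart and higher and 1076 (9.97%) lower in AAV-Shisa3, among them 696 (52.1%) of the 1336 and 614 (48.2%) of the 1274 in the same direction. These pairs differ between the tables as well as in treatment. The parts of transduction, experiment and processing in the shared genes cannot be told apart.

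The inflammatory tone of the AAV-GFP control was higher in rank than that of the 0 h control. Of 38 cytokines and chemokines 30 were ranked, and 15 of them (50%) were apart and higher in AAV-GFP, where 12.4% of all genes were, with 0 higher at 0 h. The median difference was 19.2 percentile points. It was 37.1 points with no division by length, 32.6 with the principal transcript and 4.1 with no filter, where 11 of 37 were apart. Of the 30, 4 were below 1 TPM or its equivalent at 0 h and passed the filter through AAV-GFP alone, the state where they were high. The median percentile of the list was 32.4 at 0 h, 92.3 and 93.2 in AAV-GFP, 96.1 at 2 h of LPS and 95.6 at 4 h. The lists were written with earlier results of these data known.

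Ccl12, Ccl7 and Ccl2 are chemokines that attract monocytes. Ccl12 had 10 reads at 0 h (percentile 13.1, range 5.7 to 22.3) and 548.53 and 495.99 TPM in AAV-GFP (97.2 and 97.0). Ccl7 had 23 reads at 0 h (percentile 19.3) and 1434.4 and 1468.94 TPM (99.1 and 99.2). Ccl2, the main ligand of Ccr2, had 100 reads at 0 h (percentile 45.2, range 39.5 to 51.3) and 1907.18 and 1973.68 TPM (99.5 in both). After LPS, Ccl2 stood at 96.1 at 2 h and 97.8 at 4 h, Ccl7 at 97.4 and 98.9, and Ccl12 at 94.9 and 97.4. In both AAV-GFP samples Ccl2 and Ccl7 lay above both LPS libraries, and Ccl12 lay between them.

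The neutrophil chemokines Cxcl1, Cxcl2 and Cxcl3 had 4, 70 and 1 reads at 0 h. Cxcl2 reached 183.45 and 219.78 TPM in AAV-GFP, percentiles 92.5 and 93.7, against 98.4 at 2 h of LPS. Cxcl1 reached percentiles 49.7 and 58.4, against 87.3 at 2 h and 65.5 at 4 h. Cxcl3 reached 55.2 and 72.5, against 55.0 at 2 h and 33.7 at 4 h. At 0 h and after LPS the Cxcl3 percentiles rest on a merged exon length of 3498 bases, where the principal transcript has 1016. For Cxcl1 these lengths are 1875 and 953 bases, and for Cxcl2 2068 and 1109. A longer length lowers the percentile, so how these chemokines compare with LPS is uncertain. Il1rn, the antagonist of the interleukin-1 receptor, had 181 reads at 0 h (percentile 21.5) and 601.12 and 519.95 TPM (97.5 and 97.2).

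The cytokines Tnf, Il1b, Il6 and Il12b stood lower in AAV-GFP than after LPS. Tnf, tumor necrosis factor, had 213 reads at 0 h (percentile 57.3, range 53.2 to 61.4), lay at 93.2 and 93.9 in AAV-GFP, and at 99.9 and 99.6 at 2 h and 4 h of LPS. Il1b lay at 27.1 at 0 h, at 83.0 and 89.5 in AAV-GFP, and at 99.7 and 99.6 after LPS. Il6 had 11 reads at 0 h (percentile 1.9), lay at 36.7 and 35.8 in AAV-GFP, and at 89.2 and 92.3 after LPS. Il12b, a subunit of interleukin-12, was low in both controls, with 13 reads at 0 h and 0.50 and 0.79 TPM, and lay at 96.6 and 92.4 after LPS. Some of the other cytokines not ranked apart were high in both controls, such as Ccl9 (percentile 98.9 against 99.0 and 98.9). Spp1, osteopontin (99.6 against 98.1 in both), and Pf4 (97.8 against 97.7 and 98.2) were high too. Others were low in both controls, such as Il27 (20.2 against 22.5 and 27.2). Ifnb1, interferon-β, was below the filter, with 1 read at 0 h and 1.45 and 0.95 TPM.

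Of 30 inflammatory effectors 19 (63.3%) were apart and higher in AAV-GFP and 2 at 0 h, with a median difference of 28.0 points. Of these 30, 5 were below the filter at 0 h and passed it through AAV-GFP alone. With no filter 11 of 30 were apart and higher in AAV-GFP, and the median difference was smaller. Saa3, an acute-phase serum amyloid A protein made by macrophages, ranked 6 and 5 in AAV-GFP, with 10173.2 and 13566.4 TPM. At 0 h it had 64 reads (percentile 16.9, range 13.2 to 20.6), and it lay at 99.4 at 2 h and 99.9 at 4 h of LPS. Acod1, the enzyme that makes itaconate, had 319 reads at 0 h (percentile 55.4) and 1263.21 and 1247.92 TPM (98.9 and 99.0). The formyl peptide receptors Fpr1 and Fpr2 had 40 and 44 reads at 0 h and reached percentile 98.0 in both samples and 93.1 and 94.1. Nos2, inducible nitric oxide synthase, had 9 reads at 0 h (percentile 0.8) and reached 29.6 and 30.6 in AAV-GFP, against 95.3 at 2 h and 99.6 at 4 h of LPS. Ptgs2, the inducible cyclooxygenase, lay at 5.1, then 39.0 and 45.8, against 98.3 and 99.4. The effectors higher at 0 h were the matricellular protein Thbs1 (95.7 against 61.2 and 66.4) and Cd83 (69.9 against 24.9 and 25.3). The costimulator Cd86 lay at percentile 44.8 at 0 h and at 44.3 and 45.7 in AAV-GFP.

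**Figure D3:**
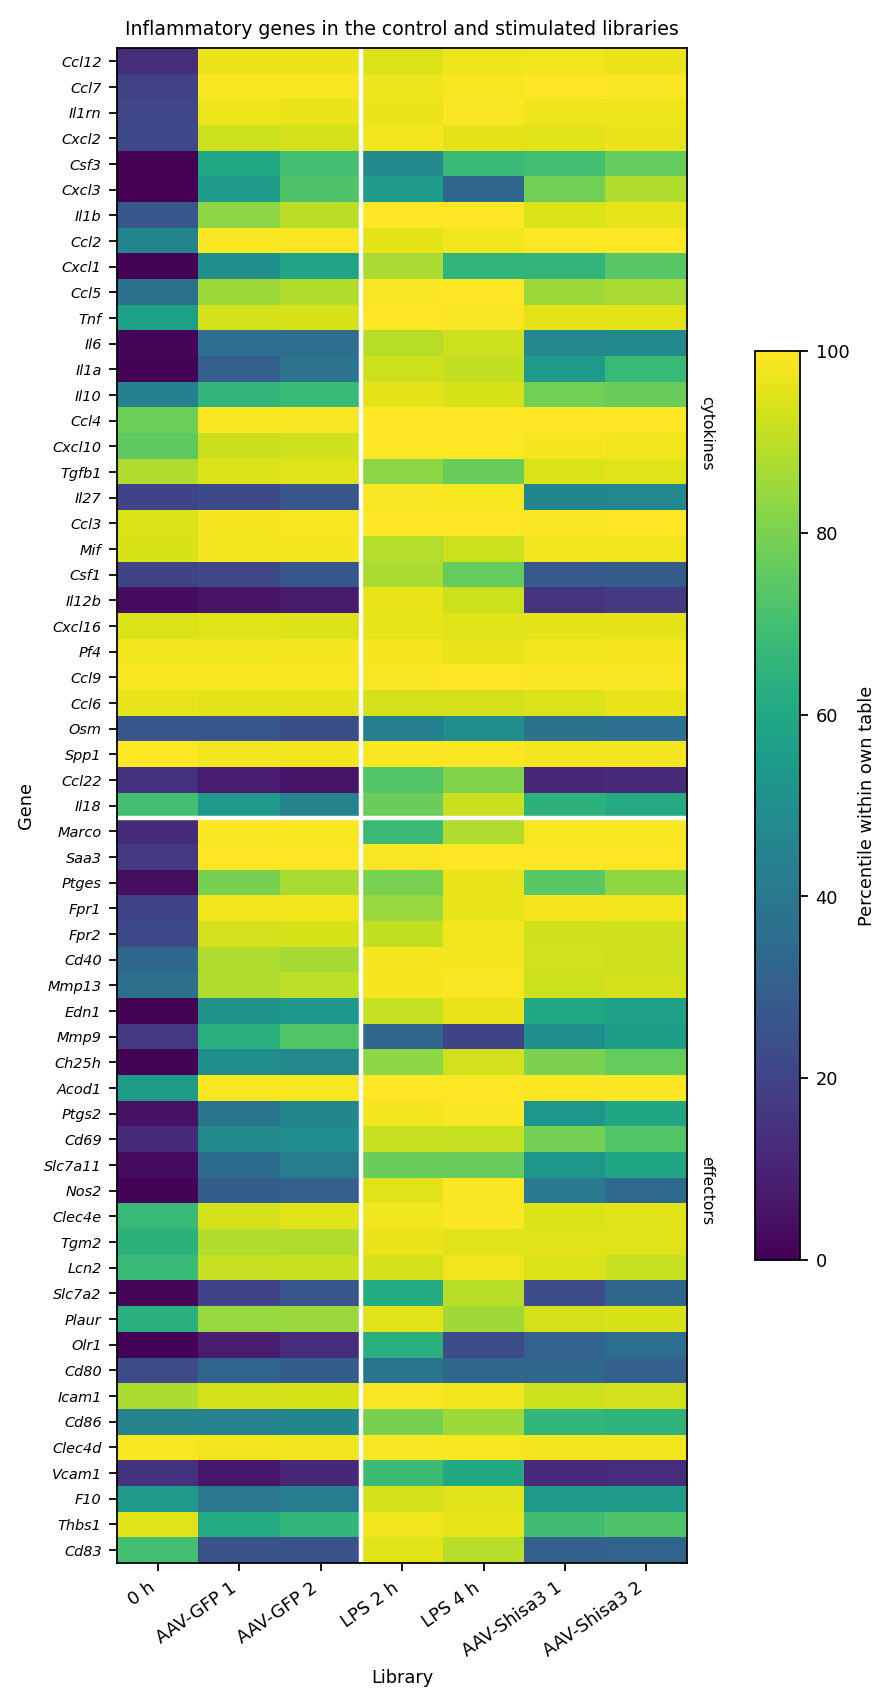
Percentile within its own table (colour, dark 0 to yellow 100) of the ranked cytokines and inflammatory effectors reported (rows, ordered by the difference between the controls) in the 3 control libraries (left of the line) and the 4 references. The upper rows of each block are dark at 0 h and bright in AAV-GFP, and Il12b and Il27 are dark in the controls and bright after LPS.

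Among 20 NF-κB subunits and feedback genes, 8 were apart and higher in AAV-GFP and 1 at 0 h. None of the 5 subunits was apart, although Rel was, and higher at 0 h, with no division by length. Rela lay at percentile 84.5 against 86.3 and 86.2, and Nfkb2 at 83.5 against 82.3 and 83.8, while Nfkb1 lay at 74.8 against 88.9 and 90.4 and Rel at 51.6 against 36.6 and 38.3. Among the feedback genes Tnfaip3, the ubiquitin-editing enzyme A20, lay at 44.1 at 0 h and at 83.5 and 85.2 in AAV-GFP, and Socs3, an inhibitor of cytokine receptors, at 57.1 against 90.6 and 92.3. Nfkbia, the inhibitor IκBα, was high in both, at 95.0 against 97.3 and 97.4. Of 19 ranked immediate-early genes 3 were apart. The 3 were Dusp1, Dusp2 and Myc, and Myc had 17 reads at 0 h (percentile 3.1) and 46.68 and 42.38 TPM (74.4 and 71.9). Fos, a subunit of AP-1, lay at 69.6 against 75.3 and 76.3, and Jun and Junb were also within 20 points.

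Of 57 interferon-stimulated genes 55 were ranked, 17 of them (30.9%) apart and higher in AAV-GFP and 0 at 0 h. The median percentile was 77.9 at 0 h, 92.3 and 93.1 in AAV-GFP and 97.6 at 4 h of LPS, so the list was already high at 0 h. Isg15, a ubiquitin-like modifier, had 209 reads at 0 h (percentile 78.0) and 2023.43 and 1744.52 TPM (99.5 and 99.4). Oasl1, an antiviral regulator of translation, had 186 reads (percentile 39.4) and reached 95.5 and 95.2. Usp18, which removes Isg15 from proteins, went from 53.4 to 96.4 and 96.2, and Slfn4 from 12.9 to 89.7 and 90.9. Ifit1 (87.2 against 94.5 and 93.7) and Rsad2 (88.1 against 94.6 and 94.4) were higher by less than 20 points. Gbp2, a guanylate-binding protein, lay at 90.5 at 0 h and at 89.9 and 89.1 in AAV-GFP, and at 99.8 at 4 h of LPS.

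The promoters of 3 genes from these groups are shown as the base on which the positions of known motifs can be read. They are the 250 bases before the start site, 5′ to 3′ on the strand of the gene, from RefSeq on GRCm38.p6, with capitals at matches to the ISRE core (GAAA, 2 free bases, GAAA), the NF-κB motif (GGG, 2 free bases, TTTCC) or the C/EBP motif TTNNGCAA, on either strand. Saa3 is at chr7:46715677-46715926 (minus strand), Isg15 at chr4:156200819-156201068 (minus strand) and Cxcl1 at chr5:90890995-90891244 (plus strand).

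Saa3: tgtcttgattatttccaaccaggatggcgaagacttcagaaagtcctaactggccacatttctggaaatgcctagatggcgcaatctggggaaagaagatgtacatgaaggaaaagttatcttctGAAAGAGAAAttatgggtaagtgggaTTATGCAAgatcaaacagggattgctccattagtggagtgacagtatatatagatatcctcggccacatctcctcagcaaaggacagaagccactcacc

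Isg15: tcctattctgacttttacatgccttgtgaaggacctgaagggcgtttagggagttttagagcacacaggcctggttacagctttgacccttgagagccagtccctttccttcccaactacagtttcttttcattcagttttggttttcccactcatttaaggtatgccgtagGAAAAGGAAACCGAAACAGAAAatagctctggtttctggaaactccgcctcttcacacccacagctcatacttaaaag

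Cxcl1: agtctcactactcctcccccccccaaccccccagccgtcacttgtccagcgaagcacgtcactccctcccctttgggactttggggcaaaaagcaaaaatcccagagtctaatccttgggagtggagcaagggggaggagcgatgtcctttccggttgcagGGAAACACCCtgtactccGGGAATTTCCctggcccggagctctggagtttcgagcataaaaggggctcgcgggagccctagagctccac

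The Saa3 window held an ISRE core that begins 125 bases before the start and a C/EBP match that begins 99 bases before it. The Isg15 window held 3 overlapping ISRE cores, which begin 78, 72 and 66 bases before the start. The Cxcl1 window held 2 NF-κB matches. A promoter of 300 bases, 250 before and 50 after the start, was found for 8566 of the ranked genes, with 10909 start sites. The ISRE core was in 3.28% of all these promoters, in 54.7% of the 53 promoters of the interferon-stimulated list, in 3.55% of those of genes higher in AAV-GFP and in 2.19% of those of genes higher at 0 h. The NF-κB motif was in 1.78% of all, in 20.9% of the 43 promoters of the cytokine and effector lists, in 2.91% of those of genes higher in AAV-GFP and in 1.75% of those higher at 0 h. The share among genes ranked apart was nearer to that of all promoters than to that of the lists. A match is a run of letters and not a measured binding site.

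The 15 genes ranked furthest above 0 h in AAV-GFP included several that are not cytokines or effectors. Slc13a3, a carrier of dicarboxylates, had 37 reads at 0 h (percentile 3.9, range 2.2 to 6.5) and 2932.13 and 2937.45 TPM (99.7 and 99.8). Cd55, which protects cells from complement, had 2 reads at 0 h and 139.53 and 142.59 TPM (90.3 and 90.4). Upp1, Cd38, Cd300e, Cd300ld3, Siglece and Igf2bp2, with 5 to 97 reads at 0 h, all stood at percentile 84.9 or higher in both AAV-GFP samples. Cd38, an enzyme that consumes NAD, and Upp1, uridine phosphorylase, were also high at 4 h of LPS, at 86.1 and 90.0, whereas Slc13a3 lay at 45.0 and Cd300e at 34.8. The remaining genes of the 15 largest were Marco, Ccl12, Ccl7 and Saa3 given above, mt-Nd4l (1 read at 0 h), Srp54a (5 reads) and the gene model Gm21887 (2 reads).

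Of the 15 largest differences in the other direction, 13 were Ugt1a genes or Gm-numbered gene models. The Ugt1a genes share exons, and the 9 that were ranked had 2645 to 4977 reads at 0 h and at most 54.99 TPM in AAV-GFP, 4 of them being at 0 in both samples. How the reads of the shared exons were assigned could set these values, and they are reported as uncertain. The other two were Hpgd, the enzyme that inactivates prostaglandins, with 2084 reads at 0 h (percentile 96.0) and 0.25 and 0.11 TPM, and Cd28, a costimulatory receptor best known from T cells, with 3904 reads (91.5) and 0.52 and 0.41 TPM. Hpgd and Cd28 were below 1 TPM in AAV-GFP and passed the filter through 0 h alone. Within the LPS table Hpgd stood at 72.6 at 2 h and 58.7 at 4 h, and Cd28 at 52.5 and 21.6.

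Of 44 cell cycle genes 24 (54.5%) were apart and higher at 0 h and 6 (13.6%) apart and higher in AAV-GFP, with a median difference of -28.8 points. Of the 44, 4 were below 1 in AAV-GFP and passed the filter through 0 h alone. With no filter 18 were apart and higher at 0 h and 1 in AAV-GFP, with a median of -14.8 points. Mki67, which coats mitotic chromosomes, had 9564 reads at 0 h (percentile 94.6) and 2.45 and 3.05 TPM in AAV-GFP (17.5 and 19.3). Ccnb2, a mitotic cyclin, had 1217 reads at 0 h (93.4) and 2.55 and 2.79 TPM (17.9 and 18.3). Cdc20, Plk1, Bub1b, Ccna2, Kif20a and Top2a were at percentiles 72.3 to 88.8 at 0 h and 13.7 to 31.1 in AAV-GFP. In LPS-stimulated BMDMs of the same table Mki67 stood at 93.9 at 2 h and 87.3 at 4 h.

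The genes of DNA replication on the list differed among themselves. Mcm4 was apart and higher at 0 h (55.2 against 31.9 and 34.8), and Mcm2 (18.5 against 42.7 and 42.4) and the thymidylate synthase Tyms (8.2 against 45.0 and 48.5) were apart and higher in AAV-GFP. Mcm2 and Mcm4 were within 20 points with the other gene lengths and with no division by length. Pcna, the sliding clamp, lay at 90.0 at 0 h and at 95.0 and 94.3 in AAV-GFP, Mcm6 at 61.4 against 69.2 and 66.9, and Mcm5 at 49.4 against 53.5 and 50.0. The mitotic kinase Cdk1 lay at 61.6 against 61.5 and 59.3, but was apart and higher at 0 h with the principal transcript length. The 6 genes higher in AAV-GFP included the cyclins Ccnd1 (15.2 against 81.8 and 77.5) and Ccnd2 (1.7 against 33.1 and 35.1), and the inhibitor Cdkn1a, which encodes p21 (71.1 against 99.1 in both). Cdkn1a was within 20 points with the principal transcript length. The inhibitor Cdkn1b, p27, went the other way, with 1814 reads at 0 h (85.3) and percentiles 34.0 and 36.1 in AAV-GFP.

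The promoter of Ccnb2 is shown because many promoters of mitotic genes carry CCAAT boxes and the CHR element TTTGAA. Its 250 bases before the start, at chr9:70421555-70421804 (minus strand), have these motifs in capitals.

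Ccnb2: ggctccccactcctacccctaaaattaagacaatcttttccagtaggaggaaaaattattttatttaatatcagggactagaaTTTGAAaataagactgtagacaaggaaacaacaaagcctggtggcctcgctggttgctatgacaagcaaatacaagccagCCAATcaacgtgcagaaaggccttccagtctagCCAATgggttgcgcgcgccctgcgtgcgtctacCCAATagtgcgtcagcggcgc

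The window held 3 CCAAT boxes, which begin 87, 54 and 21 bases before the start, and a TTTGAA match that begins 167 bases before it. CCAAT was in 73.0% of the 37 promoters of the cell cycle list, in 38.0% of all promoters, in 41.2% of those of genes higher at 0 h and in 35.1% of those of genes higher in AAV-GFP. TTTGAA was in 40.5% of the promoters of the list, in 12.1% of all, in 16.3% of those of genes higher at 0 h and in 12.1% of those of genes higher in AAV-GFP.

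Of 11 ranked MHC class II genes 6 (54.5%) were apart and higher at 0 h and 0 in AAV-GFP, with a median difference of -24.9 points. Of the 11, 3 were below 1 in AAV-GFP and passed the filter through 0 h alone, Ciita among them. With no filter 1 of 12 was apart, with a smaller median difference. Ciita, the master regulator of class II transcription, had 965 reads at 0 h (percentile 49.5) and 0.13 and 0.20 TPM (2.0 and 2.5). H2-Eb1, a class II β chain, had 1264 reads (91.7) and 11.7 and 19.87 TPM (43.4 and 54.8). H2-Ab1 lay at 92.2 against 58.3 and 68.4, and H2-Aa at 89.4 against 47.3 and 58.4. In all 3 chains AAV-GFP replicate 2 lay above replicate 1, and both lay below 0 h. Cd74, the invariant chain, had 6783 reads (99.1) and 91.78 and 143.52 TPM (85.7 and 90.4). H2-Ab1 and the chaperones H2-DMa and H2-DMb1 were within 20 points when the 0 h values were not divided by length, which left 3 of 10 apart. Dendritic cell markers stood at most at 34 reads at 0 h. In MHC class I presentation 3 of 19 genes were apart, all higher in AAV-GFP. Among these 19, 1 was below 1 at 0 h and passed the filter through AAV-GFP alone. With no filter 1 of 19 was apart. H2-K1, H2-D1 and B2m were above percentile 99 in all 3 libraries, and the immunoproteasome gene Psmb8 lay at 85.2 against 97.6 and 97.4.

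**Figure D4:**
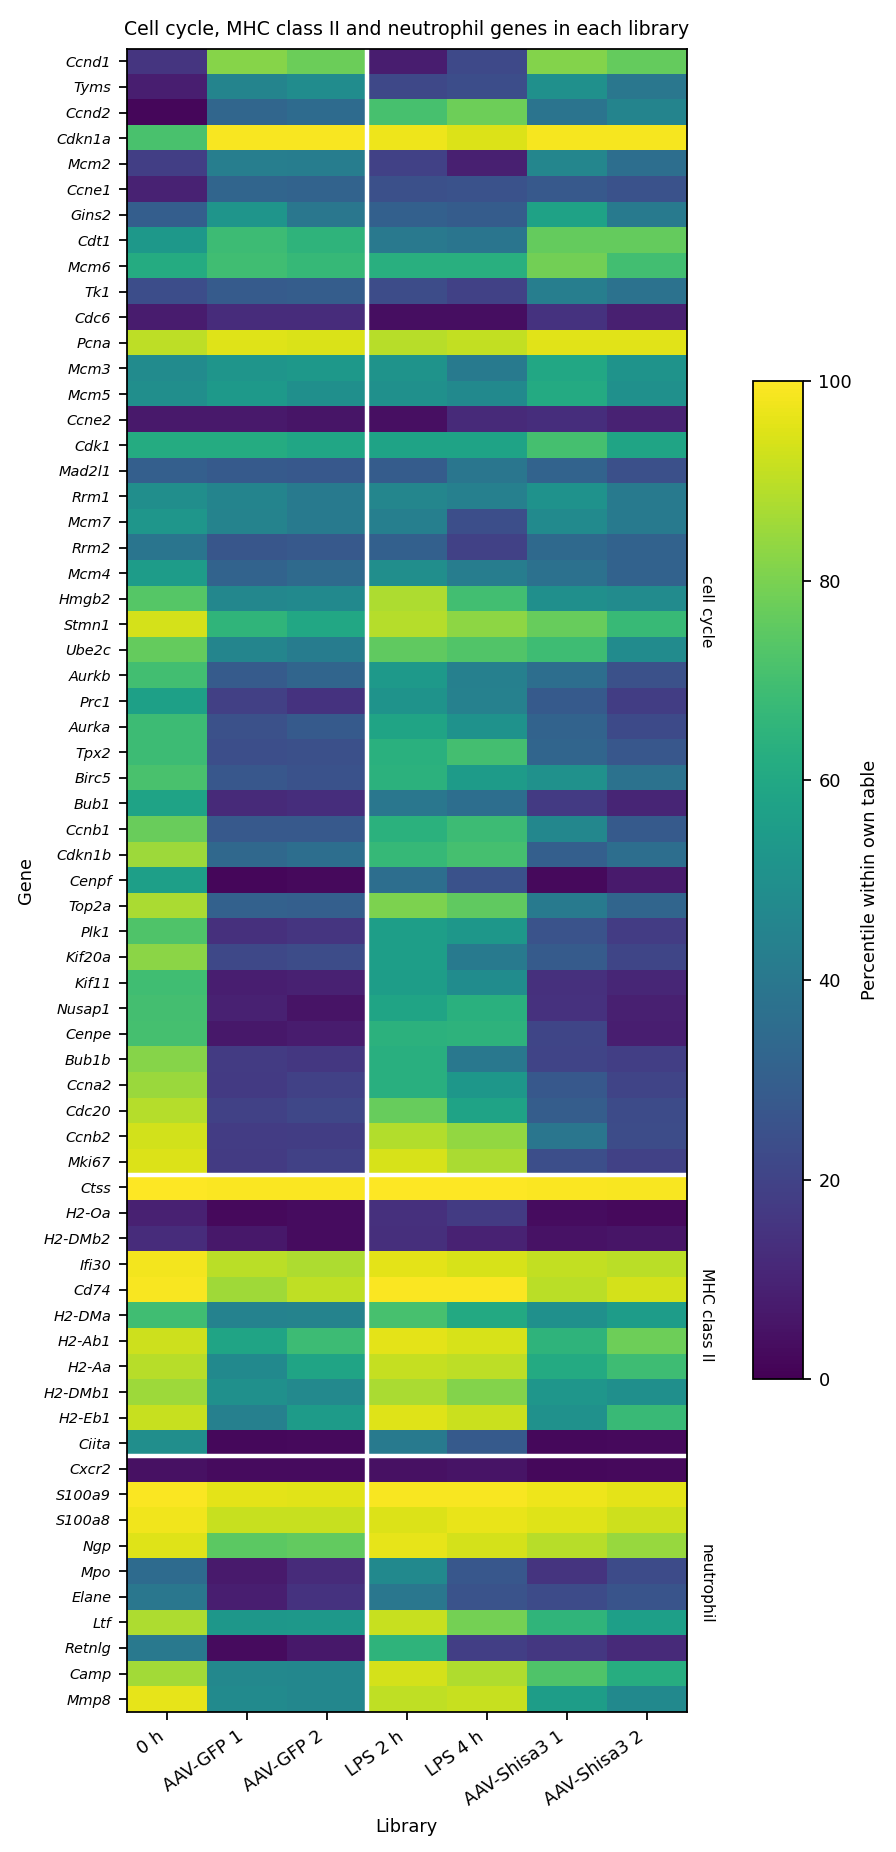
Percentile within its own table (colour, dark 0 to yellow 100) of the ranked cell cycle, MHC class II and neutrophil genes (rows, ordered by the difference between the controls) in the 3 control libraries (left of the line) and the 4 references. The lower rows of each block are brighter in the 0 h, 2 h and 4 h libraries than in the AAV-GFP and AAV-Shisa3 samples.

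Of 16 ranked markers of alternative (M2) activation, 5 were apart and higher at 0 h and 1 in AAV-GFP. Clec10a, a lectin, had 939 reads at 0 h (percentile 81.7) and 2.2 and 1.73 TPM (16.3 and 13.3). Chil3, the chitinase-like protein Ym1, lay at 94.4 against 66.1 and 64.7, and was within 20 points without division by length. Mrc1, the mannose receptor, lay at 98.5 at 0 h and at 81.9 and 81.5, within the rule, although it ranked 164 at 0 h and 1954 and 1995 in AAV-GFP. Arg1, arginase 1, went the other way, with 5 reads at 0 h (percentile 0.9, range 0.5 to 2.3) and 14.07 and 24.92 TPM (47.8 and 60.2). Retnla had 0 reads at 0 h and was listed at 0 and 0.23 TPM. Arg1 was under 1 at 0 h and passed the filter through AAV-GFP alone, while 3 other members passed through 0 h alone. With no filter 1 of 20 genes was apart in each direction.

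Of 24 lineage transcription factors 5 (20.8%) were apart and higher in AAV-GFP and 2 (8.33%) at 0 h, where the shares of all ranked genes were 12.4% and 11.8%. Cebpb (92.6 against 95.4 and 95.7), Irf8 (89.9 against 91.5 and 91.7) and Zeb2 (92.0 against 92.1 and 94.3) lay close together, whereas Cebpa lay at 90.6 at 0 h and at 47.6 and 44.9 in AAV-GFP. The inhibitors of DNA binding Id1 and Id3 had 7 and 69 reads at 0 h and lay at 45.9 and 53.3, and at 59.3 and 64.4. Nr1h3, the oxysterol receptor LXRα, had 125 reads at 0 h (30.4) and lay at 88.7 and 88.2, while its target Abca1 lay at 96.3 at 0 h and at 73.5 and 76.6. Of 30 lipid genes 5 (16.7%, near the background of 11.8%) were apart and higher at 0 h and 2 (6.67%) in AAV-GFP. Without genes whose exons overlap another gene, 2 of 24 were apart in each direction. The genes higher at 0 h included the sterol synthesis genes Hmgcs1, Fdft1 and Cyp51 and their regulator Insig1, although Fdft1 was within the rule with the longest transcript. Slc40a1, the iron exporter ferroportin, lay at 85.5 against 38.7 and 39.6, and the heme oxygenase Hmox1 at 98.1 against 99.3 in both.

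**Figure D5:**
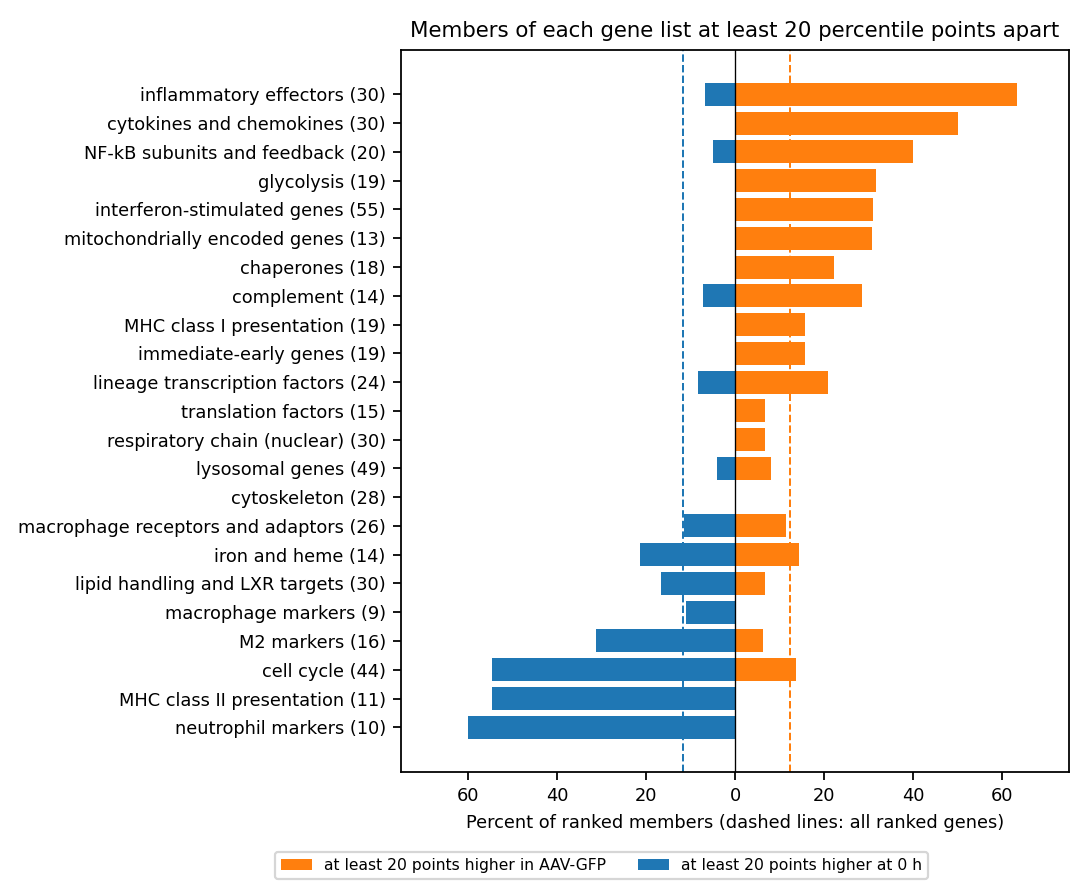
Percent of the ranked members of each gene list (number in brackets) at least 20 percentile points higher in both AAV-GFP samples (right) or at 0 h (left), with the share over all ranked genes as dashed lines at 12.4% and 11.8%. Inflammatory effectors reach 63.3% on the right, and neutrophil markers reach 60% and cell cycle and MHC class II genes 54.5% on the left.

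Shisa3, the gene overexpressed in the other arm of the transduction experiment, had 1 read at 0 h (exact 95% Poisson interval 0.0253 to 5.57 reads) and 7.88 and 10.85 TPM in AAV-GFP, percentiles 35.1 and 40.6. The chaperone Hspa8 was abundant in every control library, at rank 49 at 0 h and at ranks 19 and 18 in AAV-GFP. Of 18 ranked chaperones 4 were apart, all higher in AAV-GFP, and of 15 translation factors 1 was, also higher in AAV-GFP. Among these chaperones 1 was below 1 at 0 h and passed the filter through AAV-GFP alone. With no filter 3 of 19 chaperones were apart. Of 14 ranked complement genes 4 were apart and higher in AAV-GFP and 1 at 0 h, and of 14 iron and heme genes 2 and 3. Among the complement genes 2 were below 1 at 0 h and passed the filter through AAV-GFP alone. With no filter 2 of 16 complement genes were apart and higher in AAV-GFP and 1 at 0 h. Of 3 ranked markers each, 1 endothelial and 1 osteoclast marker were apart and higher in AAV-GFP, and 0 dendritic cell and 0 fibroblast markers were apart.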

How the data were processed

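RNA was sequenced from 7 BMDM libraries. Of these, 3 were control libraries. In the LPS table the deposited values were a signal made by the authors, read counts divided by 1 factor for each library and not by gene length. At 0 h 100% of the values came out as whole reads, within 0.01 read. In the AAV table the authors deposited values read here as TPM, since the samples summed to between 999778 and 999818. The aligner, the counter and the annotation are not given in the sources used here, and the submitters' processing notes name the build mm9. How reads shared by overlapping genes were assigned is therefore not known, and it can change the values of such genes.

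The tables were joined by the 21020 symbols that were unique in both. The 0 h values were divided by the merged exon length of each gene in GENCODE M21 (GRCm38), which was used for lengths only. Ranks within each library were taken over genes whose mean across the control states reached 1 TPM or its equivalent. Since the tables were normalized separately and the 0 h state had 1 library, only ranks were compared and no test was run. The genes named were the 20 most abundant of each state, the 15 with the largest difference in each direction, and members of fixed lists. The members and lists were chosen with earlier results of these data known. The ranking used pandas 2.3.3 and numpy 2.4.6 under Python 3.11.15, with intervals from scipy 1.17.1 and plots from matplotlib 3.10.9, and was tested on simulated data. Alternatives were other gene lengths, other filters and thresholds, each AAV-GFP sample alone and, chosen after seeing the data, the principal transcript length, the removal of overlapping genes and a join through gene identifiers. Promoters were RefSeq sequences on GRCm38.p6. No columns of other samples were in the tables. Lists are given by counts, with values for some members only, and a few members are not reported here.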

Additional observations from a re-analysis of the deposited data

How the results depend on the processing

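The count of genes higher in AAV-GFP (1336) was 878 with no filter on low levels, 2625 at a threshold of 10 points and 666 at 30 points. The count higher at 0 h (1274) was 833, 2619 and 606 under the same settings. The correlation of 0 h with AAV-GFP (0.740) was 0.672 with 0 h values not divided by length, 0.761 with the longest transcript, 0.922 with no filter, 0.640 with a mean of at least 5 and 0.739 to 0.739 with 1 AAV-GFP sample left out. Among settings chosen after seeing the data it was 0.768 with the principal transcript length, 0.757 without genes that overlap another, and 0.738 with the join through gene identifiers. The most abundant genes shared 28 of 50 and 302 of 500. With no filter the many genes near 0 take the lowest percentiles, and many differences were smaller. Not all were: the median of the erythroid markers went from -11.4 to -14.5 points with no filter. In that setting fewer interferon-stimulated (9 of 56), NF-κB (3 of 20) and glycolytic genes (2 of 19) were apart and higher in AAV-GFP. Of the 89 genes named above as apart, 82 were apart with no division by length, 85 with the longest transcript, 84 with the principal transcript, 61 with no filter and 89 with either AAV-GFP sample left out, none reversing. With no division by length Cd79b, Cebpb, Rel, Fos and Abca1 were apart too, and Abca1 also with a mean of at least 5 or without AAV-GFP replicate 2, and Cdk1 with the principal transcript. No paired analysis was possible because the 0 h state had a single library, so fewer than 2 replicate numbers were shared with the AAV-GFP samples. The depth of the AAV samples is unknown, so the error of low TPM values cannot be given, and genes with a few reads at 0 h have wide ranges there.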

Other observations

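Noncoding RNAs were ranked after their values had been seen, among 1777 genes above 0 in either state. Unlike those of the protein-coding genes, their 0 h values were not divided by length. Long RNAs can therefore rank higher at 0 h than in AAV-GFP, and length and level cannot be told apart in these ranks. Malat1, a nuclear RNA, was first at 0 h with 193249 reads and ninth in AAV-GFP with 68.16 and 107.44 TPM. Neat1, the scaffold of paraspeckles, was second in both states, with 97919 reads and with 311.55 and 375.98 TPM. Gas5, a host gene of small nucleolar RNAs, ranked 27 at 0 h (520 reads) and 4 in AAV-GFP (144.48 and 149.18 TPM). Kcnq1ot1, an antisense RNA of an imprinted locus, ranked 6 at 0 h with 2071 reads and 1319 in AAV-GFP with 0.01 and 0.02 TPM.

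Some gene families were summed after their values had been seen. Of 105 ribosomal protein genes (Rpl and Rps) 2 were apart and higher in AAV-GFP and 5 at 0 h. Of 9 Hist1h histone genes 5 were apart and higher at 0 h and 0 in AAV-GFP. Of 228 gene models with Gm numbers 94 were apart and higher at 0 h and 18 in AAV-GFP, and 46 of them stood at 0 in both AAV-GFP replicates. Of 1660 genes with more than 10% of their exons overlapped by another gene, 11.7% were apart and higher in AAV-GFP and 13.7% at 0 h, against 12.5% and 11.5% of 9133 others.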
